A study of Mus musculus with 4 samples.

Results

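The 9 genes described here encode transcription factors that establish and keep the hepatocyte state. They are Cebpa, Cebpb and Cebpd of the C/EBP family, Foxa1, Foxa2 and Foxa3 of the forkhead family, Onecut1 and Onecut2 of the cut-homeodomain family, and the homeodomain factor Prox1. The rule that picks them names symbols and uses no measured level, though it was set with earlier results of these data known, and 9 of 9 were found among the 46603 genes in the count table. RNA-seq was performed on total RNA of whole liver from 4 male mice, with 1 library for each mouse. All were HuR flox/flox mice on the C57BL/6 J background, and all were kept for 4 weeks on WDSW, a Western diet with sugar water to drink. Control mice 1 and 2 received AAV8-TBGP-GFP by tail vein, and mice 3 and 4, labelled HuR hKO, received AAV8-TBGP-Cre in the same way. TBGP, the thyroxine-binding globulin promoter, drives Cre in hepatocytes, so that the other liver cells of the HuR hKO mice keep HuR. The groups were matched for age, but the ages are not given in the sources used here.

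Liver cells take their identity from a small network of factors that bind the enhancers of the same genes. FOXA proteins open compact chromatin early in liver development, C/EBPα drives the metabolic and secretory programme of the mature hepatocyte, and C/EBPβ and C/EBPδ respond to hormones and to acute phase cytokines. Onecut1 (also called HNF6) is shared by hepatocytes and biliary cells and is known to activate Foxa2, and Prox1 is needed for hepatoblasts to spread into the growing liver and also marks lymphatic endothelium. HuR, the product of Elavl1, is an RNA-binding protein that attaches to U-rich and AU-rich stretches, mostly in the 3′ UTRs of mRNAs, and changes their stability or translation.

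The libraries held between 13032095 and 19715577 counts on genes, of which these factors together took between 0.097% and 0.121%. Levels are given as CPM, the counts of a gene divided by the library size in units of 1e6 counts, after TMM scaling of the sizes. Elavl1, the gene targeted in the mice labelled HuR hKO, was at 28.4 and 25.9 CPM in the control libraries and at 37.7 and 34.4 CPM in the libraries labelled HuR hKO. Both libraries labelled HuR hKO were thus above both control libraries, where the label calls for less (log2 fold change 0.41 ± 0.14 (SE), edgeR quasi-likelihood unadjusted p = 0.016, adjusted p = 0.545). The exons removed by Cre are not given in the sources used here, and gene totals do not separate them from the exons that remain. Every direction below is a difference between libraries as labelled. As a check of the tissue alone, which bears on neither group label, the 8 hepatocyte markers summed to between 87308 and 99874 CPM, led by Alb at 41000 to 45400 CPM.

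The sequences that bear on HuR include the AU-rich elements of the 3′ UTR. U-rich stretches without the pentamer were not counted. The core pentamer AUUUA was counted in the 3′ UTR of 1 transcript for each factor in the GENCODE M21 annotation of GRCm38. It was absent from the 3′ UTRs of Cebpa (1430 bases), Cebpb (506 bases) and Foxa3 (854 bases). It occurred 7 times in Cebpd (2900 bases), 4 times in Foxa1 (1398 bases), 3 times in Foxa2 (637 bases), 7 times in Onecut1 (2183 bases), 38 times in Onecut2 (14356 bases) and 16 times in Prox1 (5185 bases). Of 20796 protein-coding genes, 63% had the pentamer, beside 6 of the 9 factors. Those 6 factors held between 2.41 (Cebpd) and 4.71 (Foxa2) per kb. The median over all 20796 genes, those without the pentamer included, was 1.17 per kb. That median and the range of the 6 factors thus cover unlike sets. For 5 of the 6 factors with the pentamer, the window of 30 bases richest in it is printed below as RNA, 5′ to 3′, with the pentamers in capitals. A match is a description of the letters and not a site at which HuR was measured.
Cebpd, chr16:15889225-15889254, plus strand: uuagguuggacAUUUAUUUAuuguaacaga
Foxa1, chr12:57541745-57541774, minus strand: uuuuucuggcaacAUUUAaugauccacaaa
Foxa2, chr2:148042965-148042994, minus strand: cucgggucugAUUUAAUUUAugguuucugc
Onecut1, chr9:74889717-74889746, plus strand: aaaaacaagugguAUUUAuaguccaaagaa
Prox1, chr1:190118442-190118471, minus strand: aAUUUAuugguuuaAUUUAuccuaAUUUAu

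Promoters of 3 factors are shown because these factors differed by over 2-fold between the control mice, as described below. Each RefSeq window (GRCm38.p6) runs from 250 bases before the start to 50 bases after it. Both strands were searched for the forkhead motif TGTTTNC, found in 20.5% of 27025 promoters, the Onecut motif ATTGAT (7.7%), the C/EBP motif TTGCNNAA (10.7%) and the TATA box TATAAA (14.2%). Capitals mark the matches, with positions counted from the start. The Foxa1 window, which lies 805 bases inside the GENCODE start of the gene, held 1 forkhead match on the reverse strand at -141. The Foxa2 window held 1 Onecut match at -213, and the Onecut1 window held no match to the 4 motifs. Of the other windows, those of Cebpa (-30) and Foxa3 (-36) held a TATA box, Cebpb held the letters TATAAA at 22, past the start, and Prox1 held them on the reverse strand at -34. No match to the C/EBP letters TTGCNNAA was found in any of the 7 windows, and C/EBP sites that depart from these letters were not searched for.
Foxa1, chr12:57546062-57546361, minus strand: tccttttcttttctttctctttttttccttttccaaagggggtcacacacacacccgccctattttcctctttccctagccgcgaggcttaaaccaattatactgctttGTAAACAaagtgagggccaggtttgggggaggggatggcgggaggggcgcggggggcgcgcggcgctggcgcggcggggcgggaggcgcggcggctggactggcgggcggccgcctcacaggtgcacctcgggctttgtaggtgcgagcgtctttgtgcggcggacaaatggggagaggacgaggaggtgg
Foxa2, chr2:148046920-148047219, minus strand: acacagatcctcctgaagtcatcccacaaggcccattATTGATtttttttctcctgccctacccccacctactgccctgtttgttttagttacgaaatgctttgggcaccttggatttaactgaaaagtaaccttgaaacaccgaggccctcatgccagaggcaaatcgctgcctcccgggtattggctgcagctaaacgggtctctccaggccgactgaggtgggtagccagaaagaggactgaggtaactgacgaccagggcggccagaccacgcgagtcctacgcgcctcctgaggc
Onecut1, chr9:74861671-74861970, plus strand: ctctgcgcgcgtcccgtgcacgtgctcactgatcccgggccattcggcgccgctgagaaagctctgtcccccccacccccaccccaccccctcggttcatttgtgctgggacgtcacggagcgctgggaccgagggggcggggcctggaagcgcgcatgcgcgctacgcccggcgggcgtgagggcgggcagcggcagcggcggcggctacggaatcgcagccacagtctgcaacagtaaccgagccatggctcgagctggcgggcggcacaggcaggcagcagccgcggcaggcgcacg

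To examine whether the mRNAs of the identity factors differed between livers labelled HuR hKO and control, edgeR's quasi-likelihood test was fitted to the 13001 genes kept, and 9 of 9 factors passed the filter on low counts. None had an adjusted p under 0.05, against 0.0231% of all genes tested. None passed the threshold that the study set for its RNA-seq genes (a fold of at least 1.8 with an unadjusted p under 0.05), against 2.12% of all genes. With an unadjusted p under 0.05 alone there was 1 factor, Foxa1, which was lower, against 3.39% of genes that were lower by this rule and 7.43% in either direction. By the DESeq2 Wald test and by edgeR's exact test the counts at an adjusted p under 0.05 were also 0, with Foxa1 again the only factor at an unadjusted p under 0.05, and by limma-voom none reached that. The fitted log2 fold change was above 0 for 2 factors and below 0 for 7, with a median of -0.21 beside 0.00 over all genes tested. Without control mouse 1 the median was 0.00 and the split was 5 above and 4 below. In 3 factors (Cebpb, Foxa1 and Onecut2) both libraries labelled HuR hKO were below both control libraries, which 18.8% of all genes also met, and in 0 they were above, which 19.3% met.

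**Figure D1:**
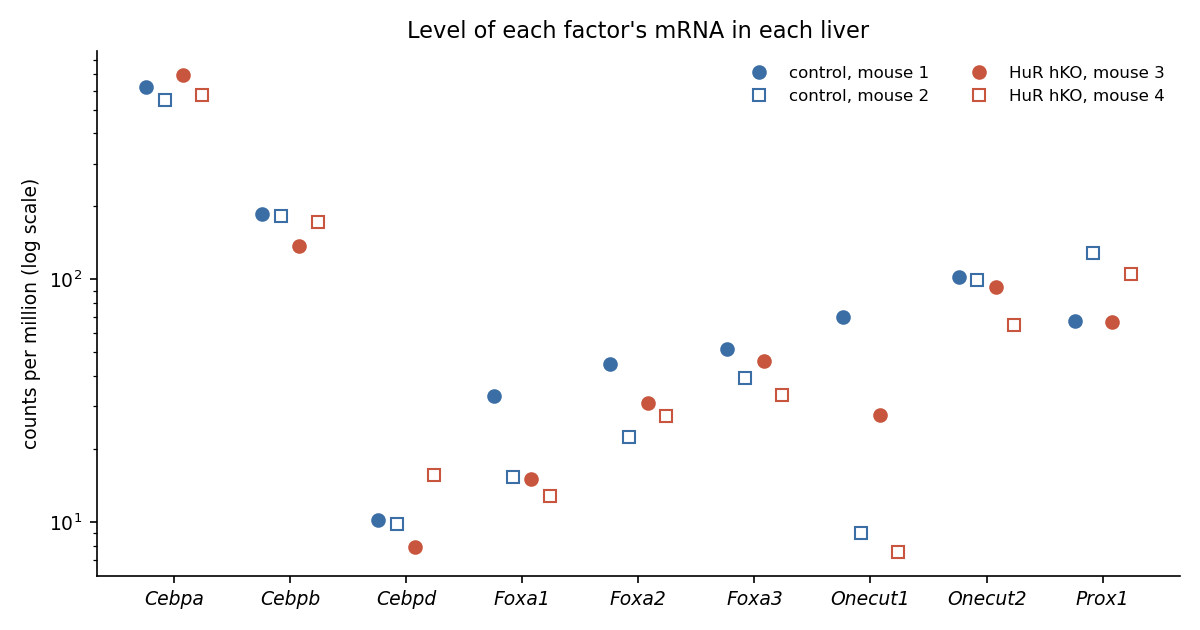
CPM (log scale) of the 9 factors in each liver, 1 point for each mouse (blue, control mice 1 and 2; red, mice 3 and 4, labelled HuR hKO). Onecut1 spreads from 7.54 to 70.3 CPM with the groups interleaved, while Cebpa stays between 548 and 699 CPM.

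Cebpa (chr7:35119293-35121928, a gene of 1 exon) was the most abundant of the factors. It was measured at 623 and 548 CPM in control mice 1 and 2 and at 699 and 575 CPM in mice 3 and 4, labelled HuR hKO. The groups overlapped, and mouse 3 was highest. The log2 fold change was 0.12 ± 0.16 (SE) with a 95% interval from -0.25 to 0.49 (edgeR adjusted p = 0.901), so that a fold outside the range from 0.841 to 1.41 lay beyond the interval. Cebpa was thus the most evenly expressed factor, with 1.28 times between the highest and the lowest liver.

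Cebpb (chr2:167688915-167690418, also of 1 exon) stood at 187 and 183 CPM in the control livers and at 138 and 173 CPM in the livers labelled HuR hKO. The control mice were almost equal, and both mice labelled HuR hKO were lower, mouse 3 more so than mouse 4. The fitted difference was -0.25 ± 0.15 (95% interval -0.59 to 0.09, edgeR adjusted p = 0.751). Cebpb shares 312 exonic bases with Tmem189 on the opposite strand, which had between 319 and 655 counts a library, and the use of strand in the counting is not given. Reads in those bases can therefore not be assigned to one gene with certainty.

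Cebpd (chr16:15887286-15891031) had the lowest mean level per length over the 4 livers and was the one C/EBP gene with AU-rich pentamers. It lay at 10.2 and 9.86 CPM in the control livers and at 7.88 and 15.7 CPM in the livers labelled HuR hKO. The mice labelled HuR hKO thus held both the lowest and the highest value, 1.99-fold apart (95% counting interval 1.59 to 2.49), while the control mice differed by 1.04-fold. The fitted log2 fold change was 0.24 ± 0.30 (edgeR adjusted p = 0.888), and it turned to -0.35 without mouse 4. Cebpd shares 562 exonic bases with Spidr on the opposite strand, which had 40 to 54 counts a library against 113 to 295 for Cebpd.

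Foxa1 (chr12:57540628-57546916, minus strand) was the factor with the smallest p. Its levels were 33.0 and 15.4 CPM in the control livers and 15 and 12.8 CPM in the livers labelled HuR hKO. Control mouse 1 stood above all others, and control mouse 2 lay close to mouse 3. The log2 fold change was -0.80 ± 0.31 with a 95% interval from -1.52 to -0.08, an unadjusted p = 0.0327 and an adjusted p = 0.612 in the edgeR test. Without control mouse 1 it was -0.16, and without control mouse 2 it was -1.25 (edgeR adjusted p = 0.0181). Most of the fitted difference was thus lost when that 1 liver was left out.

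Foxa2 (chr2:148042877-148046969, minus strand) was likewise highest in control mouse 1. The values were 44.9 and 22.4 CPM in the control livers and 31.0 and 27.3 CPM in the livers labelled HuR hKO, so the control mice enclosed both mice labelled HuR hKO. Foxa2 had a log2 fold change of -0.21 ± 0.28 (95% interval -0.85 to 0.44, edgeR adjusted p = 0.903), which was 0.37 without control mouse 1. Foxa3 (chr7:19013284-19023538, minus strand), the FOXA factor best known for keeping glucose output in fasting, was the most abundant of the family per length. It was found at 51.6 and 39.3 CPM in the control livers and at 46.3 and 33.3 CPM in the livers labelled HuR hKO, with 1 mouse of each group in the upper pair. Its log2 fold change was -0.19 ± 0.20 (95% interval -0.65 to 0.26, edgeR adjusted p = 0.863), and without control mouse 1 it was 0.00.

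Onecut1 (chr9:74861921-74891781) varied more between livers than any other of these factors. It was measured at 70.3 CPM in control mouse 1 and 9.03 CPM in control mouse 2, and at 27.7 CPM in mouse 3 and 7.54 CPM in mouse 4. These levels rest on 934, 121, 397 and 142 counts. Each group held 1 liver with a high level and 1 with a low level, and the groups overlapped, with mouse 1 above and mouse 4 below the range they share. This gave a log2 fold change of -1.19 ± 0.82 with a 95% interval from -3.08 to 0.70 (edgeR adjusted p = 0.782). It turned to 0.93 without control mouse 1 and fell to -2.41 without mouse 3, so the data do not fix the direction for Onecut1. A lincRNA on the same strand, Gm20649, shares 2171 exonic bases with Onecut1 and had 4 counts in mouse 1 and 0 in the other mice.

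Onecut2, on chromosome 18, differed from its relative by its evenness in the control livers. Its levels were 102 and 99.2 CPM in the control livers and 93.2 and 65.2 CPM in the livers labelled HuR hKO. Both mice labelled HuR hKO were lower, mouse 3 slightly and mouse 4 by more. A log2 fold change of -0.34 ± 0.18 was fitted (95% interval -0.75 to 0.06, edgeR unadjusted p = 0.0863, adjusted p = 0.698), which stayed below 0 in each fit that left out 1 mouse, between -0.64 and -0.11.

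Prox1 (chr1:190118035-190170714, minus strand) had its high and low livers the other way round from Onecut1. It stood at 67.7 and 128 CPM in control mice 1 and 2 and at 67.0 and 105 CPM in mice 3 and 4, labelled HuR hKO. In both groups the mouse with more Onecut1 had less Prox1, which is a description of 2 pairs of mice. The log2 fold change was -0.18 ± 0.30 (95% interval -0.88 to 0.51, edgeR adjusted p = 0.917), and it was 0.35 without control mouse 2. Its antisense neighbour Prox1os shares 133 exonic bases and had 68, 121, 83 and 152 counts beside 900, 1712, 960 and 1977 counts of Prox1. In whole liver, fewer cells of a type and less RNA in each cell cannot be told apart, which applies to every level given here.

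**Figure D2:**
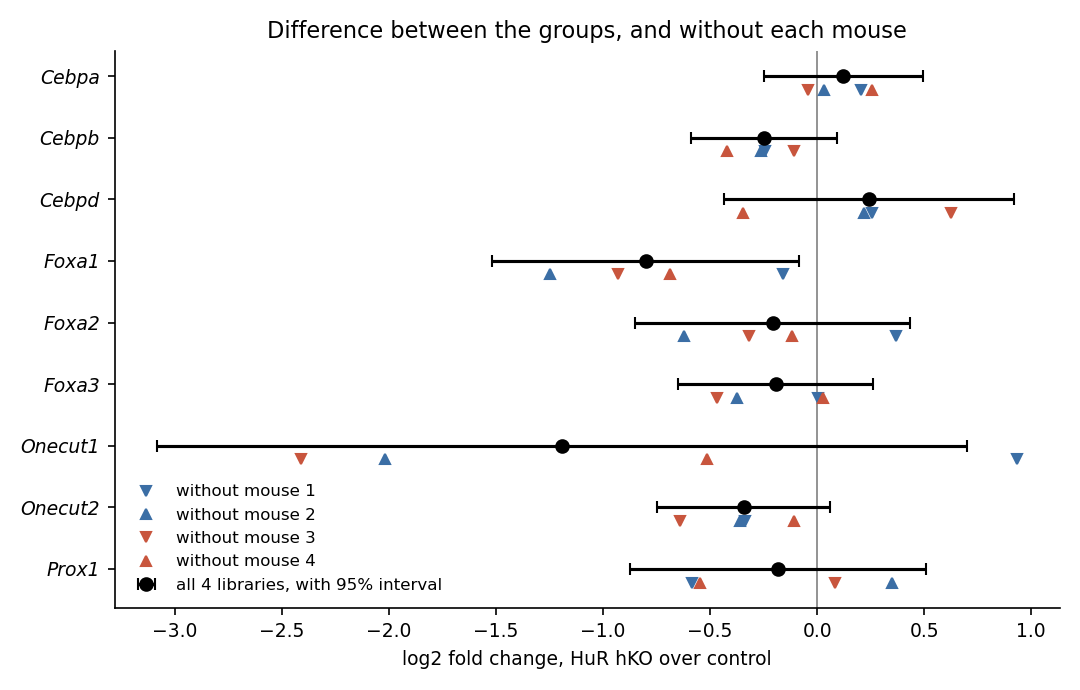
Log2 fold change of the libraries labelled HuR hKO over control for each factor (black points) with the 95% interval of the edgeR fit (bars). Triangles give the same fit without 1 mouse: Onecut1 runs from -2.41 to 0.93, and Foxa1 lies at -0.16 without control mouse 1.

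The spread between mice of the same group was then set beside that of all genes. Between the control mice, 3 of the 9 factors (Foxa1, Foxa2 and Onecut1) differed by over 2-fold, beside 5.44% of all genes. Between the mice labelled HuR hKO 1 factor did (Onecut1), beside 4.01%. Onecut1 differed by 7.78-fold between the control mice (95% counting interval 6.44 to 9.49) and by 3.67-fold between the mice labelled HuR hKO (3.03 to 4.48). Only 31 genes differed more between the control mice, and 78 differed more between the mice labelled HuR hKO. Prox1 differed by 1.89-fold (1.74 to 2.05) and 1.57-fold (1.45 to 1.69). At the other end, Cebpb and Onecut2 each differed by 1.02-fold between the control mice, with counting intervals that included 1. The counting intervals cover counting error only, and a difference beyond them is one between these livers or their libraries.

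**Figure D3:**
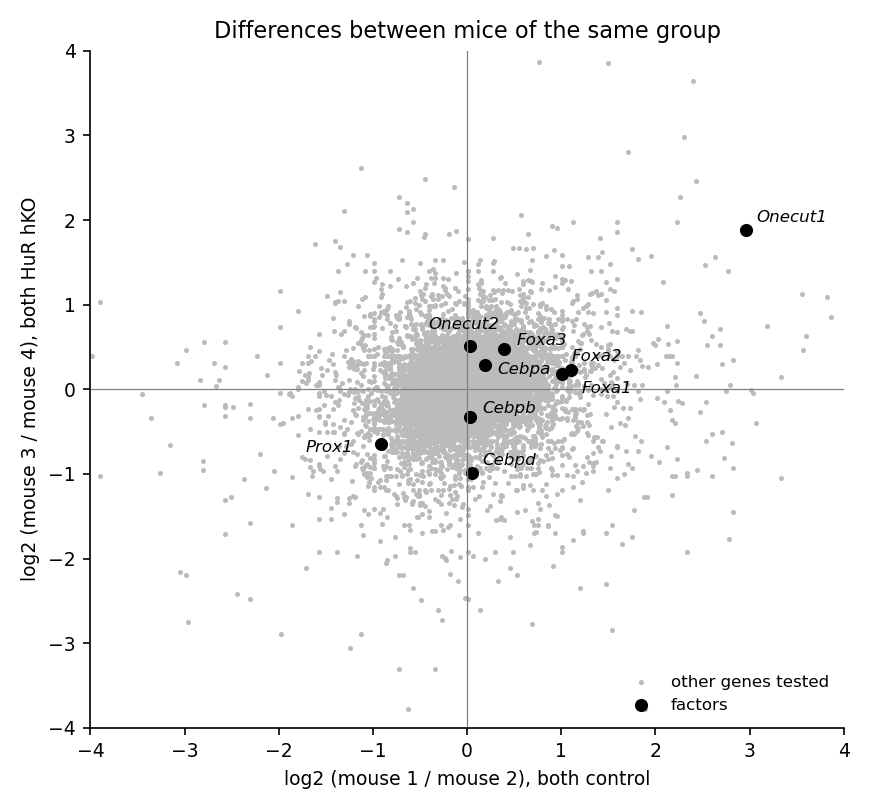
Each point is a gene, placed by the log2 ratio of control mouse 1 to mouse 2 (horizontal) and of mouse 3 to mouse 4 (vertical); black points are the factors, grey points the other genes with a count in every library, of which 7 fall outside the axes. Onecut1 lies far from the cloud at 2.96 and 1.88, with Prox1 at -0.92 and -0.65 on the opposite side.

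Control mouse 1 held the highest level of 6 of the 9 factors and the lowest of 0. The share of all genes that were highest in that liver was not counted. For Cebpb and Onecut2 the margin over control mouse 2 was small (187 against 183 and 102 against 99.2 CPM). Control mouse 1 was over 2-fold above each of the other 3 livers for Foxa1 and Onecut1, beside 53 of all genes tested (0.408%). Other genes were also high in that liver. Krt19, a keratin of bile duct cells, was at 12.2 CPM there and at 0.373, 0.488 and 1.81 CPM in mice 2, 3 and 4. Cd24a, a surface protein of progenitor and biliary cells, was at 13.9 CPM against 2.02, 2.37 and 2.28 CPM, and Krt7 and Epcam were at 3.92 and 3.23 times the level of control mouse 2. Cftr had 4 counts in mouse 1 and 0 in the other mice. The 12 cholangiocyte markers summed to 77.6 and 52.2 CPM in the control livers and 64.9 and 74.8 CPM in the livers labelled HuR hKO. Spp1, which other liver cells also express, held the largest share of that sum, and the other 11 summed to 46.1 and 29.9 against 30.1 and 32.9 CPM, highest in control mouse 1. Sox9 did not follow them, at 2.56 CPM in mouse 1 and between 2.58 and 3.45 CPM elsewhere. The part of biliary cells in the levels of Onecut1, Foxa1 and Foxa2 was not tested.

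Some genes that respond to glucocorticoids or fasting were also high in control mouse 1, and others were not. Lpin1, a phosphatidate phosphatase, was at 394 CPM there and at 48.0, 119 and 123 CPM in mice 2, 3 and 4, and Zbtb16 was at 25.1 CPM against 5.38, 9.42 and 9.08 CPM. Both were singled out after their values were seen. Other genes of the same list were also higher in mouse 1 than in mouse 2, such as Fkbp5 (58.9 against 27.2 CPM), Dusp1 (28.3 against 17.8 CPM), Klf9 (105 against 70.2 CPM) and Errfi1 (1260 against 882 CPM), though for Fkbp5 mouse 4 was highest, at 61.7 CPM. Per1 was nearly even over the livers, at 44.0 to 49.5 CPM, and Tsc22d3 was highest in mouse 4, at 135 CPM. Sgk1 was lowest in mouse 1, at 13.8 CPM against 15.9, 23.2 and 19.2 CPM in mice 2, 3 and 4. Sds, at 238 CPM in mouse 1, was highest in mouse 4, at 328 CPM. The clock genes, a list added after the data were seen, had 0 of 14 genes tested at an unadjusted p under 0.05, against 7.43% of all genes tested. Among the clock genes Nfil3 had the smallest p (18.9 and 20.5 against 16.5 and 15.4 CPM), and Dbp, which swings widely over the day, lay between 197 and 275 CPM. Clock lay between 14.8 and 25.4 CPM and Nr1d1 between 84.9 and 130 CPM. The part of feeding state, hormone level or time of day in the levels of the factors was not tested.

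**Figure D4:**
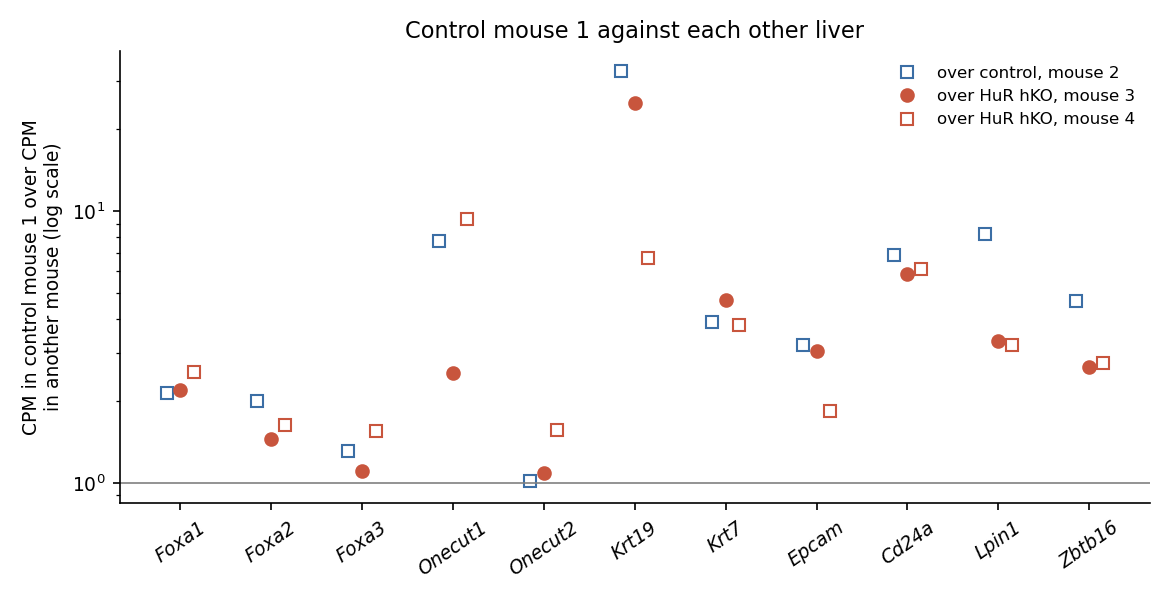
CPM of control mouse 1 divided by that of each other mouse (log scale) for the FOXA and Onecut factors and for genes that were high in that liver. Onecut1 lies at 7.78, 2.54 and 9.32 over mice 2, 3 and 4 and Foxa1 at 2.15, 2.2 and 2.57, while Onecut2 stays between 1.02 and 1.56.

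Levels of different genes were compared only per length, as CPM per kb of annotated exon, over the 4 livers. Cebpa came first at 232 ± 25.1 (SD, n = 4) and Cebpb second at 113 ± 14.9 CPM per kb. They were followed by Foxa3 at 20.9 ± 3.94, Foxa2 at 13.3 ± 4.08, Prox1 at 10.9 ± 3.55, Onecut1 at 6.96 ± 7.11, Foxa1 at 5.73 ± 2.82, Onecut2 at 5.53 ± 1.03 and Cebpd at 2.91 ± 0.889 CPM per kb. The ranges over livers did not overlap between Cebpa and Cebpb, nor between Cebpb and Foxa3. From Foxa3 down to Cebpd the ranges of neighbours overlapped. Within each of the 4 livers, Foxa3 was the third highest, and Foxa3 stood above Foxa2 and Foxa2 above Foxa1, whereas the place of Onecut1 moved from liver to liver. Among 12955 genes with a length, 1.68% stood above Cebpa and 51.2% above Cebpd. The long 3′ UTR of Onecut2 enters its annotated length of 16234 bases, and a shorter mRNA in liver would give it a higher level per kb.

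Within each family, the ratio of 2 members in the same library does not depend on the scaling for library size. The 7 pairs were compared with an exact two-sided permutation test, which cannot give a p under 0.333 with 2 mice against 2, so no pair could pass a threshold. Foxa1 stood at 0.524 and 0.489 times Foxa2 in the control livers and at 0.344 and 0.335 times in the livers labelled HuR hKO, per kb. This was the pair with the least spread within the groups relative to the difference, which was -0.58 on the log2 scale (exact p = 0.333, adjusted p = 0.777 over 7 pairs). Both control mice had the higher ratio, and the difference was between -0.63 and -0.53 whichever mouse was left out. The ratio of Foxa1 to Foxa3 was also lower in both mice labelled HuR hKO (0.198 and 0.236 against 0.392 and 0.24), but control mouse 2 lay close to mouse 4, and Foxa2 to Foxa3 overlapped between the groups.

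Among the C/EBP factors, Cebpa made up 65.1% and 62.6% of the summed level per kb in the control livers and 73.9% and 64.6% in the livers labelled HuR hKO, and Cebpd between 0.586% and 1.24%. The Cebpa to Cebpb ratio was 1.9 and 1.71 against 2.9 and 1.89, which overlapped (exact p = 0.667). Cebpb to Cebpd was lower in both mice labelled HuR hKO (43.5 and 27.6 against 45.5 and 46.2, exact p = 0.333), and Cebpa to Cebpd overlapped. For the Onecut factors the order itself changed from liver to liver. Onecut1 was 2.73 times Onecut2 in control mouse 1 and 1.17 times in mouse 3, but 0.359 times in control mouse 2 and 0.456 times in mouse 4. The difference between the groups was -0.44 on the log2 scale (exact p = 1), and it was 1.03 without control mouse 1.

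**Figure D5:**
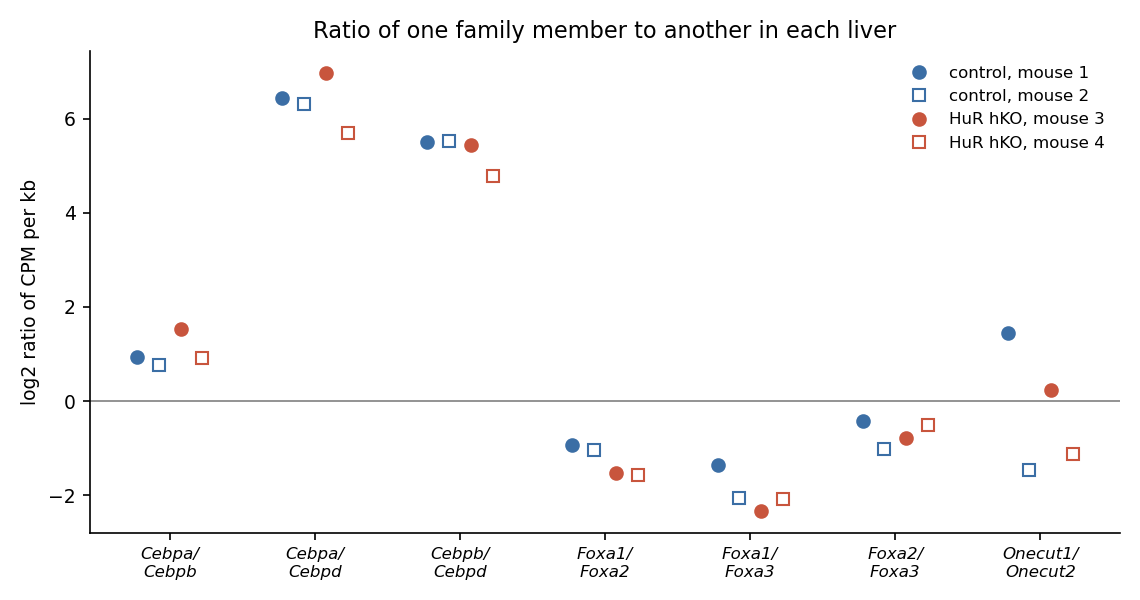
Log2 ratio of CPM per kb for the 7 pairs of factors within a family, 1 point for each liver. Foxa1/Foxa2 lies at -0.93 and -1.03 in the control livers and at -1.54 and -1.58 in the livers labelled HuR hKO, and Onecut1/Onecut2 crosses 0 within each group.

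Relatives of the factors and regulators of the C/EBP proteins were next described. Of the 6 relatives, Onecut3 had 0 counts in all 4 libraries, which allows a level of up to 0.152 to 0.23 CPM, and the other 5 were tested. Cebpe, best known from granulocytes, was at 10.8 and 11.9 CPM against 8.93 and 8.33 CPM (log2 fold change -0.40 ± 0.18, edgeR adjusted p = 0.67). Cebpg, a C/EBP partner, was at 65.2 and 51.3 against 73.7 and 50.2 CPM, and Cebpz, which shares the name but not the family, was at 30.2 and 30.1 against 30.6 and 31.3 CPM. Ddit3 (CHOP), a stress-induced C/EBP partner, lay between 4.74 and 5.44 CPM, and Prox2 between 0.907 and 1.87 CPM. At an unadjusted p under 0.05 there were 0 relatives, against 7.43% of all genes tested. Of the 8 regulators tested, 1 reached that p and was higher, against 4.04% of all genes. This was Trib3, a stress-induced pseudokinase, at 4.67 and 5.9 CPM in the control livers and 8.44 and 12.1 CPM in the livers labelled HuR hKO (log2 fold change 0.96 ± 0.25, edgeR unadjusted p = 0.00429, adjusted p = 0.381). Its adjusted p ran from 0.0419, without the filter on low counts, to 0.999 over the alternatives. Trib1 and Trib2, which with Cop1 mark C/EBPα for degradation, had unadjusted p of 0.251 and 0.67, and Cop1 0.36 in the edgeR test.

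Other liver-enriched transcription factors gave 17 genes tested, of which 1 had an unadjusted p under 0.05 (higher, against 4.04% of all genes), with a median log2 fold change of 0.05. It was Atf5, an amino acid response factor, at 257 and 292 CPM against 472 and 403 CPM (0.67 ± 0.15, edgeR unadjusted p = 0.00201, adjusted p = 0.281). Over the alternatives its adjusted p ran from 0.0119 to 0.789, and it was under 0.05 by DESeq2, by edgeR's exact test and without the filter on low counts. Hnf4a, the nuclear receptor at the centre of the hepatocyte network, was at 612 and 392 against 524 and 441 CPM, so that control mouse 1 was again highest and the groups overlapped. Classical liver targets of the factors had 20 genes tested with a median of 0.01, 2 higher and 1 lower at an unadjusted p under 0.05 (against 4.04% and 3.39% of all genes). Cyp7a1, the rate-limiting enzyme of bile acid synthesis, was at 101 and 132 against 65.5 and 89.0 CPM (-0.59 ± 0.19, edgeR adjusted p = 0.53). Hp, haptoglobin, was at 2190 and 2040 against 2690 and 3010 CPM.

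The acute phase genes, many of which C/EBPβ and C/EBPδ act on, had the most genes at an unadjusted p under 0.05, with 5 of 15 higher and 1 lower and a median of -0.02. Of all genes tested, 4.04% were higher and 3.39% lower by this rule. Saa1 was at 40.1 and 27.0 CPM in the control livers and 71.6 and 67.2 CPM in the livers labelled HuR hKO, and Saa2 at 19.8 and 17.9 against 34.4 and 39.7 CPM. Both encode serum amyloid A and are close paralogs, so the division of reads between them depends on the counting. Lcn2, lipocalin 2, was at 3.09 and 2.61 against 8.44 and 16.3 CPM, and Orm2 at 7.22 and 5.52 against 8.58 and 11.8 CPM. Hpx, hemopexin, was lower, at 2250 and 2200 against 917 and 752 CPM (log2 fold change -1.41 ± 0.17, edgeR adjusted p = 0.0636). No gene of the list had an adjusted p under 0.05 in the edgeR quasi-likelihood test, while Hpx, Saa1, Saa2 and Lcn2 did by DESeq2 and by edgeR's exact test. Other acute phase proteins of the list were not higher. Orm1 was at 354 and 494 against 342 and 433 CPM and Fgb at 2810 and 2630 against 2610 and 2440 CPM. Apcs was at 23.3 and 28.6 against 24.0 and 20.8 CPM. Among the receptors and mediators, Stat3 lay between 60.8 and 70.2 CPM and Socs3 between 2.97 and 4.4 CPM, with overlapping groups.

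Of the glucocorticoid and fasting genes, 2 of 10 were higher at an unadjusted p under 0.05 (against 4.04% of all genes), with a median of 0.08. They were Sgk1, a kinase (13.8 and 15.9 against 23.2 and 19.2 CPM), and Sds, serine dehydratase (238 and 207 against 274 and 328 CPM). Of the 12 fetal liver genes, 5 passed the filter on low counts, and Cd24a alone had an unadjusted p under 0.05 (lower, against 3.39% of all genes, edgeR adjusted p = 0.632), with the high level in control mouse 1 given above. Without that mouse its log2 fold change was 0.19 in place of -1.77.

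Markers of other cell types were read for the factors they share. Lymphatic endothelium also expresses Prox1. Its 6 markers summed to 68.0 and 66.5 CPM in the control livers and 72.7 and 78.5 CPM in the livers labelled HuR hKO, of which Reln held the largest share, and the other 5 summed to 32 and 27.3 against 34.5 and 34.9 CPM. Pdpn was at 0.226, 0.299, 0.209 and 0.796 CPM, Lyve1 at 6.25, 7.99, 8.79 and 8.44 CPM and Flt4 at 22.1, 16.9, 23.0 and 20.8 CPM in mice 1 to 4, and Lyve1 and Flt4 are also found in the sinusoids. None of 5 tested had an unadjusted p under 0.05. Blood endothelial markers gave 0 of 5 (Pecam1 with the smallest p, 15.3 and 17.1 against 21.7 and 19 CPM) and macrophage markers 0 of 9 (Clec4f, 60.0 and 52.5 against 67.3 and 68.0 CPM). Of 6 neutrophil markers only Csf3r passed the filter (1.51 and 1.64 against 0.837 and 1.06 CPM), and Ly6g was at 0 in every library. Among stellate cell markers 1 of 5 was higher (Col1a1, 9.26 and 10.5 against 11.9 and 18.7 CPM), among cholangiocyte markers 1 of 8 tested (Spp1, 31.5 and 22.3 against 34.8 and 41.9 CPM) and among hepatocyte markers 1 of 8 was lower (Serpina3k, 7930 and 6570 against 3930 and 5190 CPM), all at an unadjusted p under 0.05 in the edgeR test. By this rule 4.04% of all genes tested were higher and 3.39% lower. The part of these cell types in the levels of the factors was not tested.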

How the data were processed

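Total liver RNA of 4 mice (2 control, 2 HuR hKO) was sequenced. The authors deposited whole-number counts per Ensembl gene, without normalization. The submitters' processing notes name RSEM and the build GRCm38; versions, aligner and use of strand are not given in the sources used here. All 4 columns were matched to mice by their labels. Symbols were found for 46005 of 46603 genes. Exon lengths, overlaps and 3′ UTRs came from GENCODE M21, and promoters from RefSeq, with 7 of 9 factors used. Protein sequences were not used here.

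Counts were filtered (minimum 10, total 15), scaled by TMM and tested with the quasi-likelihood test of edgeR 4.0.16 (R 4.3.3), two-sided, with Benjamini-Hochberg adjustment over 13001 genes. It was checked on simulated counts whose spread followed the trend over genes of like level, which does not cover a gene of wider spread. Alternatives were DESeq2 1.42.0, limma-voom (limma 3.58.1), edgeR's exact test, other scalings and filters, and leaving out each mouse. Ratios within families were tested by exact permutation (scipy 1.17.1). Tables used python 3.11.15, pandas 2.3.3 and numpy 2.4.6, and plots matplotlib 3.10.9. A count of 0 allows up to 3 counts. The labels give separate mice. To look for a library deposited under more than 1 label, each pair was compared by chi-square, and every pair differed by more than sampling noise (23 to 35.7 per degree of freedom).

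The factors and lists were chosen with earlier results of these data known. Named were all 9 factors, their relatives, Elavl1, the defining markers of cell types that share a factor, and of each other list the genes with an unadjusted p under 0.05 or else the gene with the smallest p. Further genes were chosen after their values were seen. A few listed genes are counted but not reported by name. The lists were relatives, C/EBP regulators, other liver factors, liver targets, fetal liver, glucocorticoid and fasting, acute phase, and markers of 7 cell types. The pentamer and motif counts, the marker sums without their most abundant gene and the comparison of livers within a group were added after the data were seen.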

Additional observations from a re-analysis of the deposited data

How the results depend on the processing

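With 2 mice in a group, the 95% intervals of the factors ran from 0.664 to 1.07 in fold for Cebpb to 0.118 to 1.63 for Onecut1, and smaller differences were not detectable. No paired analysis was possible because the groups share no replicate numbers. The all-gene median of the log2 fold change stayed between -0.03 and 0.01 in all settings. The count of factors with an adjusted p under 0.05 was 0 under the other scalings, filters and tests and 0 to 1 when a mouse was left out (1, Foxa1, without control mouse 2). Factors past the fold of 1.8 with an unadjusted p under 0.05 numbered 1 without a filter on low counts, against 2.45% of all genes in that fit. Factors with an unadjusted p under 0.05 numbered 3 without the filter (Foxa1, Onecut1 and Onecut2), 0 by limma-voom, and 1 to 3 with a mouse left out: Prox1 without control mouse 1, Foxa1, Foxa2 and Onecut1 without control mouse 2, Cebpd and Onecut2 without HuR hKO mouse 3, and Cebpb without HuR hKO mouse 4. Over all genes tested, the share at an unadjusted p under 0.05 was 7.43% in the edgeR fit to all 4 libraries, 6.84% without the filter, 7.55% by limma-voom, 6.72% and 10.7% without control mice 1 and 2, and 5.74% and 4.18% without mice 3 and 4, and the share at an adjusted p under 0.05 ran from 0% without mouse 3 to 0.923% by edgeR's exact test, with 0.538% without control mouse 2. Each such fit leaves 1 mouse in a group, which is assumed to vary like the other group. The median of the factors ran from -0.36 to 0.00. Leaving out 1 mouse turned the direction of these log2 fold changes, given as the range over the 4 fits with the fit that turned: Cebpa -0.043 (without mouse 3) to 0.26, Cebpd -0.35 (without mouse 4) to 0.62, Foxa2 -0.62 to 0.37 (without control mouse 1), Foxa3 -0.47 to 0.0285 (without mouse 4, and 0.004 without mouse 1), Onecut1 -2.41 to 0.93 (without mouse 1), Prox1 -0.58 to 0.35 (without control mouse 2, and 0.09 without mouse 3), Cebpg -0.23 (without mouse 3, and -0.07 without mouse 2) to 0.34, and Flt4 -0.016 (without mouse 2) to 0.35. Without control mouse 1 the highest value was reached, above 0, by Cd24a (-2.58 to 0.19), Krt19 (-3.66 to 1.63), Epcam (-1.17 to 0.50), Lpin1 (-1.71 to 1.32) and Zbtb16 (-1.44 to 0.77). Other genes named above also turned when 1 mouse was left out, among them Hnf4a (-0.34 to 0.29), Orm1 (-0.36 to 0.13) and Fkbp5 (-0.16 to 0.94). Stat3 (-0.07 to 0.12) and Sox9 (-0.12 to 0.28) did so as well. The cause was not tested. No other scaling, filter or test turned the direction of a factor.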
